A study of Mus musculus with 9 samples.

Results

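The genes described here belong to Ras signalling: Hras, Nras, Rras, Rras2 and Mras, which encode 5 small GTPases of the Ras family, and Rasa1 and Nf1, which encode 2 GTPase-activating proteins (GAPs) that act on Ras. They were taken by gene symbol, matched to the Ensembl identifiers of the deposited table, and all 7 were found, 7 of 54838 genes in the table; the rule itself uses no measured value. RNA was sequenced from 9 libraries, 3 of each of 3 untreated cultures of the mouse pancreatic ductal adenocarcinoma line PDA530 Met (written PDA50 Met in the design text), which was started from a liver metastasis of a KPC mouse (male) of Mixed 129/SvJae/C57Bl/6 background. KPC is a genetic model that combines oncogenic Ras with mutant Trp53, so all 3 groups descend from tumour cells of that model. The E4 knockout is a clone edited by CRISPR/Cas9 at Zdhhc20, which encodes a palmitoyltransferase. The C5 control (WTCtrl) is a clone that was nucleofected with those guide RNAs, escaped editing and still expresses Zdhhc20. The third group is the unedited parental line. Each clone grew from 1 cell, and edited and unedited cells are represented by 1 clone each, so the 3 libraries replicate a clone rather than an edit, and the edit and the choice of clone cannot be told apart. The study sets the E4 knockout against both other groups, and the third comparison, of the C5 control with the parental line, measures the distance of a clone without the edit from its source.

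Ras proteins are molecular switches at the inner face of the plasma membrane. Exchange factors load them with GTP, GAPs make them hydrolyse it, and the GTP-bound form recruits effectors such as the RAF kinases, which feed the MEK and ERK cascade. Membrane binding needs lipids on the C-terminus: a farnesyl or geranylgeranyl group on the cysteine of the terminal CAAX box and, in several family members, palmitate on a cysteine just before it, added and removed in a cycle by palmitoyltransferases and thioesterases. Hras and Nras are palmitoylated by the enzyme encoded by Zdhhc9 with its partner Golga7. In pancreatic ductal tumours Ras is the main oncogenic driver. The libraries measured RNA and hold no information on lipidation, protein level or GTP loading.

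The end of each coding sequence is shown because it encodes the part of the GTPase that carries the lipids. Each line is the last 20 codons before the stop codon (60 bases, 5′ to 3′ on the coding strand, GENCODE M21, build GRCm38), with cysteine codons in capitals.
Hras: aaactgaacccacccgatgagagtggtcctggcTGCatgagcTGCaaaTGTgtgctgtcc
Nras: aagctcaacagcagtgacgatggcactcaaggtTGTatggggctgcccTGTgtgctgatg
Rras: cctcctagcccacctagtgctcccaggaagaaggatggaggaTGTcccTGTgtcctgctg
Rras2: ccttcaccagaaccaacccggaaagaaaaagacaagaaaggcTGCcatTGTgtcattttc
Mras: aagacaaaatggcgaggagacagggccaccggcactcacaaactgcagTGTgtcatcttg
All 5 sequences hold a cysteine codon in the fourth position from the end, the CAAX cysteine. Hras holds 2 further cysteine codons upstream of it within this window, Nras, Rras and Rras2 hold 1 each, and Mras holds 0. The windows lie in the exons at chr7:141191351-141191410 (minus strand) for Hras, chr3:103063387-103063446 (plus strand) for Nras, chr7:45021302-45021361 (plus strand) for Rras, chr7:114048167-114048226 (minus strand) for Rras2 and chr9:99388408-99388467 (minus strand) for Mras.

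Each library held 16525869 to 23192701 counts. Zdhhc20 lay at 33.9 to 42.5 CPM (counts scaled to a common library depth) in the E4 knockout, 85.8 to 123 in the C5 control and 75.3 to 90.7 in the parental line, so its transcript was lower but still present in the edited clone (log2 fold change of -1.53, SE 0.15, adjusted p = 6.97e-05 against the C5 control; edgeR). The cells carried 7 of 8 ductal epithelial markers at a group mean of at least 5 CPM in every group; Epcam was under 1 CPM in all 3. The summed level of those 8 markers was 4343 to 4474 CPM in the E4 knockout, 7038 to 9406 in the C5 control and 6734 to 8206 in the parental line, and its part in the results below was not tested. Markers of other cell types were low or at 0. The 4 acinar markers summed to 0 to 0.0436 CPM a library, with Cpa1, Cel and Ptf1a at 0, the 5 leukocyte markers to 0 to 0.297, with Cd3e and Adgre1 at 0, and the 4 endothelial markers to 0.118 to 0.525, with Pecam1 and Cdh5 detected in every group. The 5 fibroblast markers, with Dcn and Lum at 0, summed to 0.818 to 1.67 CPM in the E4 knockout, 1.31 to 2.89 in the C5 control and 3.12 to 4 in the parental line, mostly from Pdgfra (0.702, 1.68 and 2.94 CPM) and Col1a1 (0.647, 0.252 and 0.482 CPM). The part of these transcripts in the results was not tested. Libraries of the C5 control spread more than the others: the median SD of log2 CPM over 10020 genes was 0.203 there, 0.0753 in the E4 knockout and 0.0839 in the parental line. Bulk RNA cannot tell fewer cells of a kind from less RNA per cell.

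All 7 genes were expressed and passed the filter on low counts, 7 of 13153 genes tested. Levels of different genes were compared as CPM per kilobase of the merged exons of each gene. Nras was the highest of the 7 in every group, at 56.4 ± 1.41 CPM per kilobase (SD, n = 3) in the E4 knockout, 48.4 ± 3.63 in the C5 control and 51.9 ± 0.468 in the parental line. On this length Rras2 came second, with group means from 23.1 to 35, and Mras was the lowest in every group, with group means from 0.412 to 1.34. In the E4 knockout the order between them was Rasa1 (19.4), Rras (15.7), Hras (12.6) and Nf1 (6.47), and the libraries of no neighbouring pair overlapped. In both other groups Rasa1 stood lower in the order, after Rras and Hras: its mean was 8.62 CPM per kilobase in the C5 control and 11.6 in the parental line. Neighbours overlapped for Nras with Rras2 and for Rras with Hras in the C5 control, and for Hras with Rasa1 in the parental line. The order between Nras and Mras depends on the length used. Per kilobase of the longest transcript, a length chosen after seeing the data, Nras was still the highest and Mras the lowest in every group, while Rasa1 stood second in the E4 knockout at 31.2, ahead of Rras2 (25.6), Rras (17.7) and Hras (16.7), the last 2 with overlapping libraries. On that length Rasa1 was at 18.6 in the parental line, between Rras2 (23.2) and both Hras and Rras (15.9), and at 13.8 in the C5 control, where its libraries overlapped those of Hras (18.1) and lay above those of Nf1 (7.43). Hras and Rras overlapped in every group on that length.

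**Figure D1:**
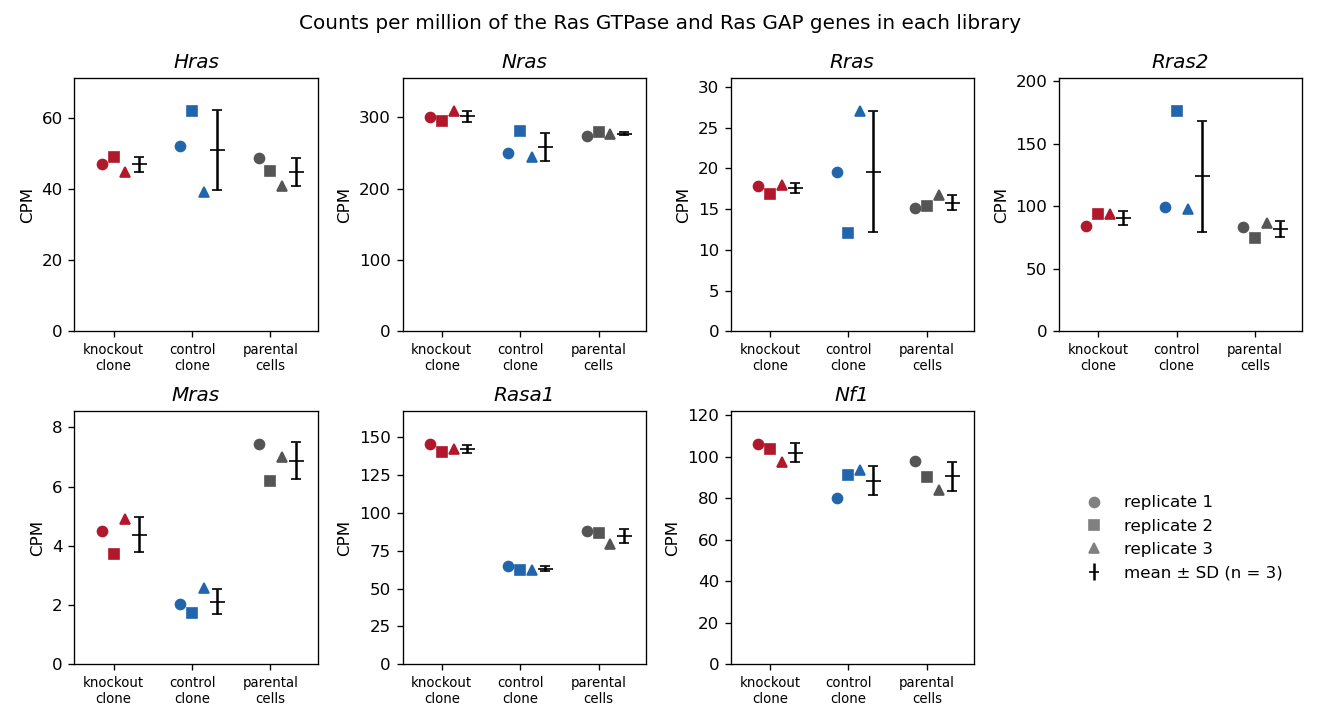
CPM (vertical axes, each from 0) of the 7 genes in the 9 libraries; symbols are replicates and the black mark is the mean ± SD of 3 libraries. Rasa1 lay at 140.0 to 145 in the E4 knockout and under 90 in all other libraries, Mras separated all 3 groups, and Rras and Rras2 scattered mostly in the C5 control.

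Against the C5 control, 3 of the 7 genes were called higher in the E4 knockout (Nras, Mras and Rasa1) and 0 lower, at an adjusted p under 0.05 over all genes tested (edgeR quasi-likelihood test, Benjamini-Hochberg). In that comparison 42.9% of all genes tested were called, 18.7% higher and 24.2% lower, so a count of 3 of 7 is close to the share over all genes. Without control replicate 3 the count was 6 of 7, with Hras and Rras2 called lower, in a fit that called 45.5% of all genes. Against the parental line 2 were called, Rasa1 higher and Mras lower, where 31.4% of all genes were called, 13.1% higher and 18.3% lower. Between the C5 control and the parental line 2 were called, Mras and Rasa1, both lower in the C5 control, where 21.4% of all genes were called, 10.4% higher and 11% lower. The libraries of the groups did not overlap for 5, 4 and 3 of the 7 genes in these 3 comparisons, against 51.6%, 61.5% and 37.3% of all genes. None of the 7 was called in the E4 knockout in 1 direction against both other groups with a size of 1 or more on the log2 scale, as 7.37% of all genes were; in the C5 control 1 of 7, Mras, was, as 3.28% of all genes were. These comparisons share libraries pairwise and are not independent.

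Nras (ENSMUSG00000027852, chr3:103058285-103067914, plus strand) encodes a ubiquitously expressed classical Ras protein. It was measured at 299.5, 294 and 308 CPM in the E4 knockout, 250.4, 280.2 and 244 CPM in the C5 control, and 274, 279 and 277 CPM in the parental line. The 3 knockout libraries were the 3 highest of the 9. Nras was 1.16-fold higher in the E4 knockout than in the C5 control (log2 fold change 0.22, SE 0.07, 95% interval 0.06 to 0.38, adjusted p = 0.0323). Against the parental line the difference was 0.12 (SE 0.07, -0.04 to 0.28, adjusted p = 0.23), and the test did not call it, nor the difference of -0.10 between the C5 control and its parental line (SE 0.07, -0.26 to 0.06, adjusted p = 0.349). The call against the C5 control was lost without knockout replicate 1 (adjusted p = 0.0617), knockout replicate 3 (0.1) or control replicate 1 (0.0905). It was also lost in a fit of only these 2 groups (0.0668), with no filter on low counts (0.0918) and with the replicate number as a block (0.0533). Of the 50-base stretches of its transcripts, 0.661% also occur in transcripts of other genes.

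Hras (ENSMUSG00000025499, chr7:141189105-141194005, minus strand), the other classical Ras gene of the set, was measured at 47.1, 49.2 and 45 CPM in the E4 knockout, 52.2, 62 and 39.4 CPM in the C5 control, and 48.8, 45.3 and 41 CPM in the parental line. The groups overlapped in every comparison, and both the highest and the lowest library belonged to the C5 control. The E4 knockout differed from the C5 control by -0.12 on the log2 scale (SE 0.15, 95% interval -0.45 to 0.21, adjusted p = 0.54) and from the parental line by 0.07 (SE 0.15, -0.27 to 0.40, adjusted p = 0.77). The C5 control differed from the parental line by 0.19 (SE 0.15, -0.15 to 0.52, adjusted p = 0.405). Without control replicate 3 the first difference was -0.28 (adjusted p = 0.0499) and the last 0.34 (adjusted p = 0.0311).

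Rras (ENSMUSG00000038387, chr7:45017961-45021647, plus strand) encodes R-Ras, a relative of the classical proteins known for its role in integrin activation and vessel maturation. It was measured at 17.8, 16.9 and 18 CPM in the E4 knockout, 19.6, 12.1 and 27 CPM in the C5 control, and 15.1, 15.4 and 16.8 CPM in the parental line. The C5 control held the lowest library (replicate 2) and the highest (replicate 3), while the knockout libraries all lay just above the parental ones. No difference was called: -0.16 against the C5 control (SE 0.23, 95% interval -0.67 to 0.36, adjusted p = 0.612), 0.16 against the parental line (SE 0.23, -0.36 to 0.68, adjusted p = 0.648) and 0.31 for the C5 control against the parental line (SE 0.23, -0.21 to 0.83, adjusted p = 0.368). Single control libraries decided the values: without replicate 2 the E4 knockout differed from the C5 control by -0.40 (adjusted p = 0.0277) and the C5 control from the parental line by 0.56 (adjusted p = 0.0125), and without replicate 3 the first difference turned to 0.14 (adjusted p = 0.544).

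Rras2 (ENSMUSG00000055723, chr7:114046782-114117781, minus strand) encodes TC21, a transforming R-Ras relative. It was measured at 84, 94 and 93.7 CPM in the E4 knockout, 99.6, 176 and 97.6 CPM in the C5 control, and 83.9, 75 and 87 CPM in the parental line. All 3 control libraries lay above all 6 others, and control replicate 2, the library lowest in Rras, was the highest. The log2 fold change was -0.46 for the E4 knockout against the C5 control (SE 0.20, 95% interval -0.91 to 0.00, adjusted p = 0.0955), 0.14 against the parental line (SE 0.20, -0.31 to 0.60, adjusted p = 0.628) and 0.60 for the C5 control against the parental line (SE 0.20, 0.15 to 1.06, adjusted p = 0.0631). None passed the threshold in this fit. Without control replicate 2 the C5 control differed from the parental line by 0.27 (adjusted p = 0.0417), without replicate 1 by 0.74 (0.0473) and without replicate 3 by 0.75 (0.0187); without replicate 3 the E4 knockout differed from the C5 control by -0.60 (0.03).

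Mras (ENSMUSG00000032470, chr9:99385420-99437381, minus strand) encodes M-Ras, which with Shoc2 and a phosphatase subunit forms a complex that helps activate RAF kinases. It was the least abundant of the set, with 29 to 154 counts a library, and was measured at 4.49, 3.73 and 4.91 CPM in the E4 knockout, 2.05, 1.73 and 2.57 CPM in the C5 control, and 7.42, 6.19 and 7 CPM in the parental line. The groups did not overlap: the C5 control was lowest, the E4 knockout intermediate and the parental line highest. Mras was 2.06-fold higher in the E4 knockout than in the C5 control (log2 fold change 1.04, SE 0.20, 95% interval 0.60 to 1.48, adjusted p = 0.00244). It was lower in the E4 knockout than in the parental line (-0.65, SE 0.18, -1.07 to -0.24, adjusted p = 0.0243) and lower in the C5 control than in the parental line (-1.69, SE 0.19, -2.13 to -1.26, adjusted p = 0.000586). The direction in the E4 knockout therefore depended on the control group used. The call against the parental line was lost without knockout replicate 1 (adjusted p = 0.0728), knockout replicate 2 (0.0918), parental replicate 1 (0.0868) or parental replicate 3 (0.0806), at log2 fold changes from -0.67 to -0.55. Of all genes tested, 0.89% (117) were at least as far below both other groups in the C5 control.

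Rasa1 (ENSMUSG00000021549, chr13:85214780-85289130, minus strand) encodes p120-RasGAP, an SH2-domain GAP that docks on activated receptors. It was measured at 145, 140.0 and 142 CPM in the E4 knockout, 64.9, 62.3 and 61.9 CPM in the C5 control, and 88.1, 86.3 and 79.5 CPM in the parental line. Every knockout library lay above every other library, and every control library lay below every parental one. Rasa1 rose 2.26-fold in the E4 knockout against the C5 control (log2 fold change 1.17, SE 0.07, 95% interval 1.02 to 1.33, adjusted p = 5.33e-06) and 1.68-fold against the parental line (0.75, SE 0.07, 0.60 to 0.90, adjusted p = 7.99e-05). It was lower in the C5 control than in the parental line, a fold of 0.745 (-0.42, SE 0.07, -0.58 to -0.27, adjusted p = 0.00304). Of all genes tested, 1.93% (254) rose at least as much in both comparisons of the E4 knockout. All 3 differences were called under each of 17 alternatives, at 1.16 to 1.21, 0.70 to 0.78 and -0.48 to -0.41. The gene shares 12 exon bases, 0.164% of its exons, with Ccnh on the opposite strand.

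Nf1 (ENSMUSG00000020716, chr11:79339693-79581612, plus strand) encodes neurofibromin, the GAP lost in neurofibromatosis. It was measured at 106, 104 and 97.4 CPM in the E4 knockout, 80.4, 91.3 and 93.8 CPM in the C5 control, and 98, 90.1 and 83.8 CPM in the parental line. The knockout libraries lay above all control libraries but overlapped the parental ones. The log2 fold change was 0.21 against the C5 control (SE 0.09, 95% interval 0.01 to 0.41, adjusted p = 0.0789), 0.18 against the parental line (SE 0.09, -0.02 to 0.37, adjusted p = 0.156) and -0.03 for the C5 control against the parental line (SE 0.09, -0.23 to 0.16, adjusted p = 0.811). None was called, although the first was called without control replicate 3 (0.26, adjusted p = 0.0416), with total-count scaling (0.25, 0.0471) and by DESeq2 (0.22, 0.0468). Genes such as Omg, Evi2a and Evi2b lie inside Nf1 on the opposite strand and share 0 exon bases with it.

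**Figure D2:**
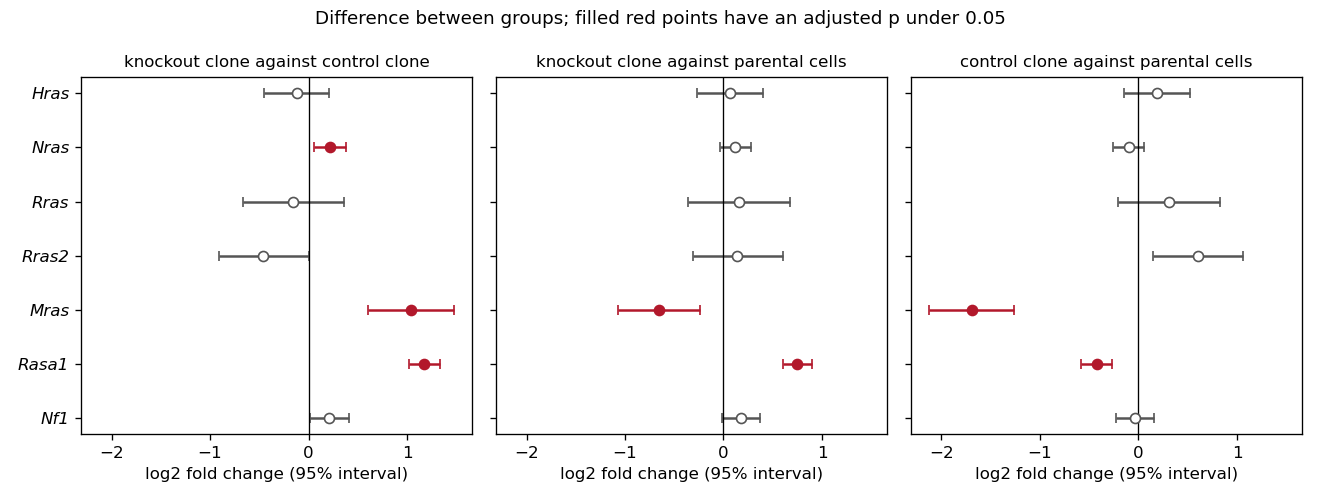
Log2 fold change (horizontal axis) of the 7 genes in the 3 comparisons; points are edgeR estimates, bars are 95% intervals, and filled red points have an adjusted p under 0.05. Rasa1 and Mras are filled in all 3 panels, with Mras at 1.04, -0.65 and -1.69, and the intervals of Hras and Rras include 0 throughout.

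The makeup of the 5 GTPase transcripts was described as each gene's share of their summed CPM per kilobase, and no other gene enters that sum. Nras made up 51.5%, 49.8% and 51.1% in the E4 knockout, 43.9%, 40.5% and 42.2% in the C5 control, and 49.9%, 52.1% and 50.1% in the parental line. The E4 knockout and the parental line therefore overlapped in Nras share (50.8 ± 0.851% and 50.7 ± 1.2%, SD, n = 3), and the C5 control lay below both (42.2 ± 1.72%). Rras2 made up 26.2%, 38.1% and 25.4% of the sum in the C5 control, above its 21.6% to 23.9% in the E4 knockout and 21% to 23.6% in the parental line. Hras held a mean of 11.4%, 11.9% and 11.8% in the E4 knockout, the C5 control and the parental line, and Mras 0.767%, 0.365% and 1.31%. The sum itself was 111 ± 2.11 CPM per kilobase in the E4 knockout, 115 ± 12.8 in the C5 control and 102 ± 1.69 in the parental line.

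**Figure D3:**
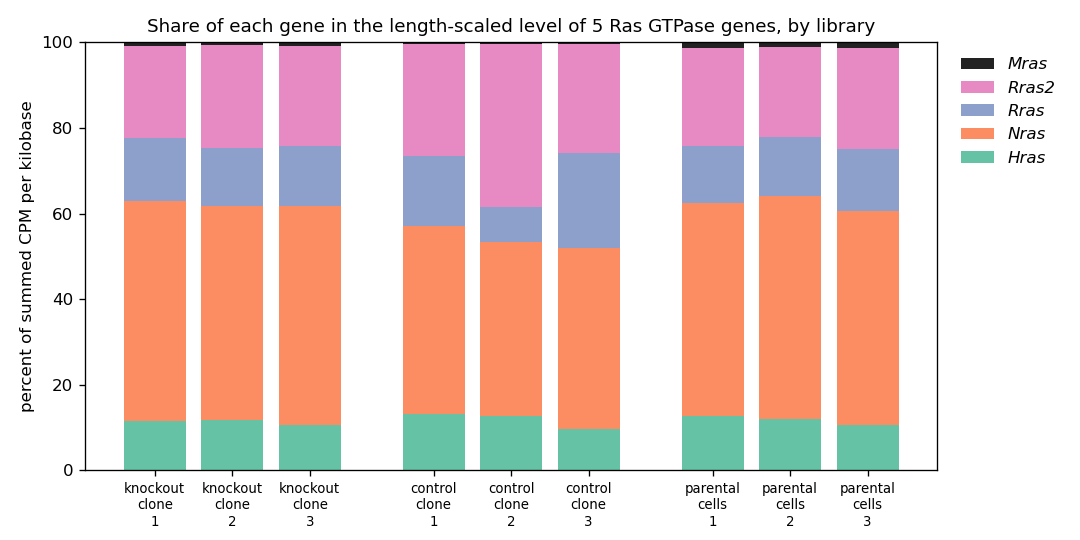
Share (percent, vertical axis) of Hras, Nras, Rras, Rras2 and Mras in their summed CPM per kilobase; each bar is 1 library. Nras takes 49.8% to 52.1% in the knockout and parental libraries and 40.5% to 43.9% in the control libraries, where Rras and Rras2 vary most.

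The balance between both GAP transcripts differed between the groups. The ratio of Rasa1 to Nf1 per kilobase was 2.96, 2.91 and 3.16 in the E4 knockout, 1.75, 1.48 and 1.43 in the C5 control, and 1.95, 2.08 and 2.05 in the parental line, with no overlap between any groups. The ratio of Rasa1 to the summed GTPase transcripts was 0.171 to 0.181 in the E4 knockout, 0.0656 to 0.083 in the C5 control and 0.105 to 0.117 in the parental line. These ratios carry no test. Group means of Nf1 itself ran from 88.5 to 102 CPM, and those of Rasa1 from 63.1 to 142 CPM.

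Both genes that differed in all 3 comparisons lie on chromosomes whose genes also shifted. On chromosome 13, which carries Rasa1, the median log2 fold change of 542 tested genes was 0.33 for the E4 knockout against the C5 control, 0.12 against the parental line and -0.20 for the C5 control against the parental line, where genes elsewhere had medians of -0.04, -0.01 and 0.02. Rasa1 exceeded those chromosome medians by 0.84 and 0.63 in the first 2 comparisons and lay 0.22 below the last (-0.22). In the first 2 comparisons 8.32% and 7.21% of the genes of chromosome 13 were at least as high as Rasa1. Its 5 tested neighbours on either side had a median of 0.46 against the C5 control, with 4 called higher and 1 lower. Against the parental line their median was -0.03, with 0 called higher and 1 lower, while Rasa1 itself was at 0.75. Between the C5 control and the parental line their median was -0.23, with 1 called higher and 4 lower, and Rasa1 was at -0.42. On chromosome 9, which carries Mras, the median of 748 tested genes was -0.53, -0.53 and -0.02 in the 3 comparisons. Mras thus lay 1.57 above its chromosome's median against the C5 control, at -0.12 from it against the parental line, and at -1.67 from it between the C5 control and the parental line. The 10 tested neighbours of Mras had medians of 0.36, 0.07 and -0.35, with 4, 0 and 0 called higher and 0, 2 and 4 called lower. The part of these chromosome-wide shifts in the differences of Rasa1 and Mras was not tested, and DNA copy number was not analysed here. The medians of the chromosomes of the other 5 genes lay between -0.05 and 0.06.

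**Figure D4:**
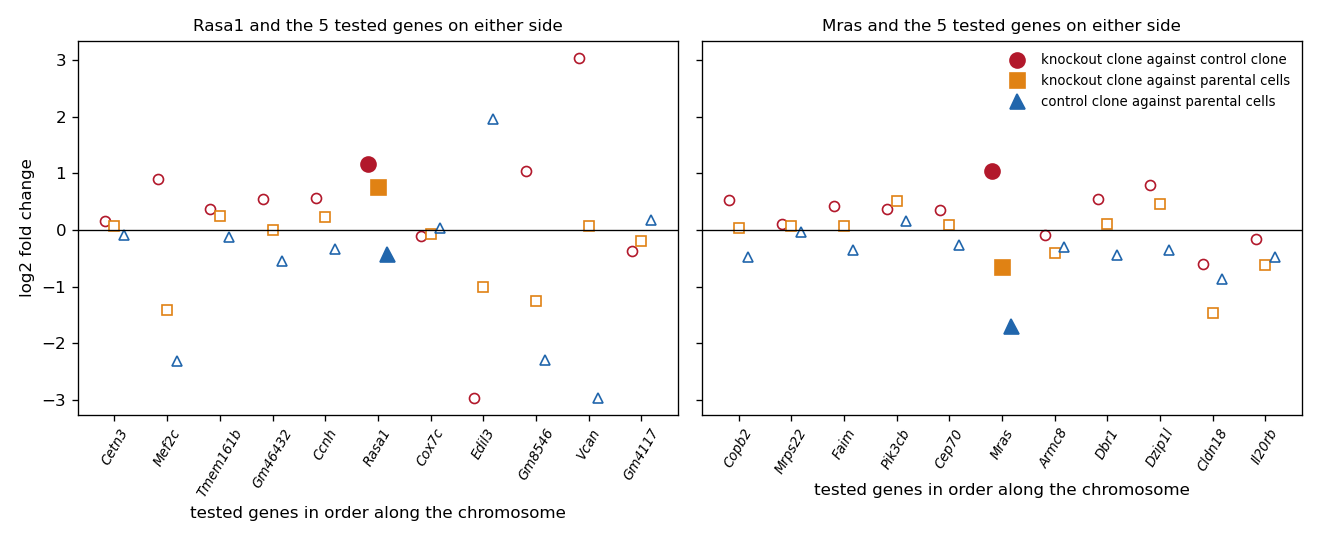
Log2 fold change (vertical axis) of Rasa1 and Mras (filled) and of the 5 tested genes on either side (open) in chromosome order; colours and symbols are the 3 comparisons. Rasa1 at 0.75 stands above its neighbours in the E4 knockout against the parental line, where their values run from -1.42 to 0.24, and Mras at -1.69 stands below its neighbours in the C5 control against the parental line, where the lowest is -0.87.

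The genes also differed in how evenly they were measured. In the C5 control the SD of log2 CPM was 0.581 for Rras, 0.482 for Rras2 and 0.329 for Hras, and 93.2%, 88.8% and 74.8% of 10020 genes had a lower SD there. For Rasa1 it was 0.0371 in the same libraries, a value that 3.26% of genes undercut, and for Nras 0.106. The SD of Rasa1 was 0.0246 in the E4 knockout, where 8.75% of genes had a lower one, and 0.0786 in the parental line, where 46.3% did.

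For each of the 3 genes called in at least 1 comparison, the genes of most similar profile were ranked by the root mean square difference of centred log2 CPM over the 9 libraries. The nearest to Rasa1 were Nptxr (0.103) and Sox4 (0.106; also on chromosome 13), where the median over 10019 candidate genes was 0.515. Those nearest to Mras were Filip1l (0.182) and Fuca2 (0.21), against a median of 0.742. The nearest to Nras were Ilk (0.0383) and Mdh2 (0.0384), against a median of 0.234.

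The wider pathway was read from 8 lists of 106 genes, of which 85 were tested. Of those, 41 (48.2%) were called for the E4 knockout against the C5 control, 25 higher and 16 lower, beside 42.9% of all genes. Against the parental line 40 (47.1%) were called, 20 in each direction, beside 31.4%, and 16 (18.8%) between the C5 control and the parental line, beside 21.4%. The list medians of 0.04, 0.05 and 0.01 lay near those of all genes tested (-0.02, -0.01 and 0.01). The pathway genes thus moved in both directions, as the plot of log2 fold changes by list shows. These shares move with the libraries and groups fitted: against the parental line 2515 of 13474 genes (18.7%) were called without parental replicate 3 and 6840 of 12777 (53.5%) with only those 2 groups fitted. Leaving out single libraries, the pathway count against the parental line ran from 28 without parental replicate 3 to 52 without control replicate 3.

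**Figure D5:**
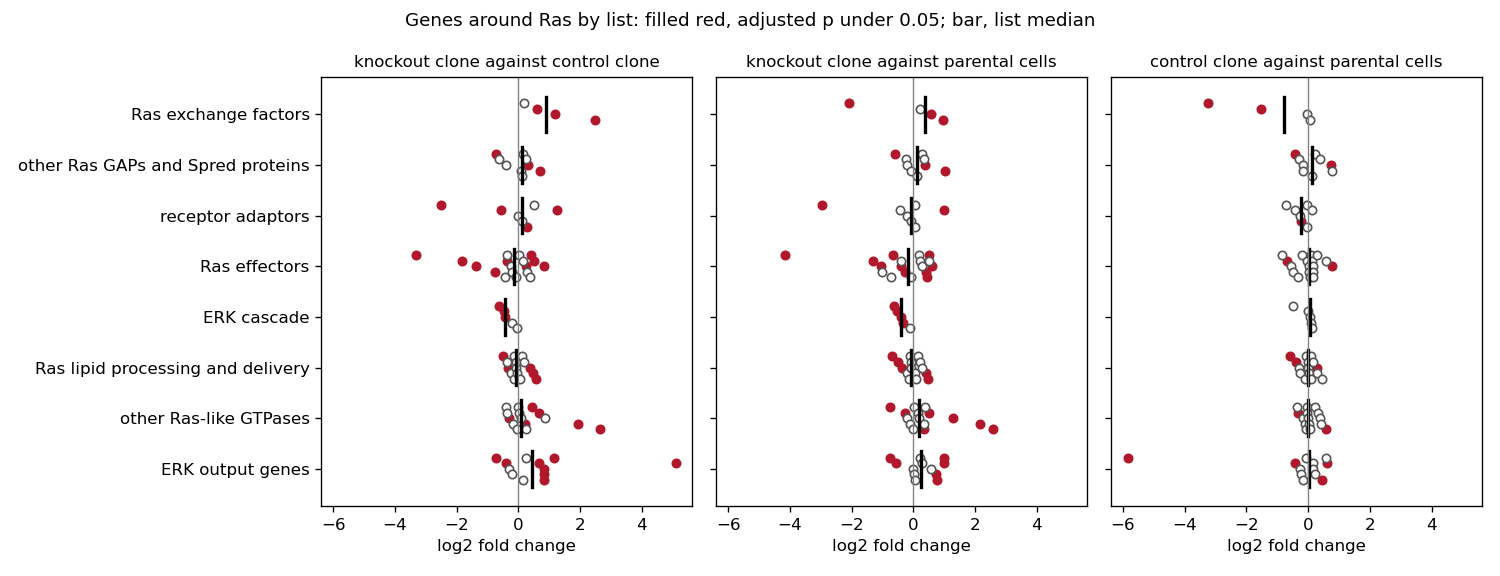
Log2 fold change (horizontal axis) of the 85 tested pathway genes by list in the 3 comparisons; filled red points have an adjusted p under 0.05 and the bar is the list median. The ERK cascade sits at medians of -0.44 and -0.40 in both comparisons of the E4 knockout and at 0.06 in the third; the leftmost effector, Rasip1, has 2 counts in the E4 knockout, so its fitted position depends on the prior count.

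Upstream of Ras, 3 of 4 tested exchange factors were called higher in the E4 knockout against the C5 control, and 2 higher and 1 lower against the parental line. That was 75% of the list in each, beside 42.9% and 31.4% of all genes tested. Rasgrp3, a diacylglycerol-responsive exchange factor, was at 174 ± 15.7 CPM in the E4 knockout, 31.3 ± 7.35 in the C5 control and 89.8 ± 4.1 in the parental line (SD, n = 3). It rose by 2.48 against the C5 control (SE 0.16, adjusted p = 7.99e-06) and by 0.96 against the parental line (SE 0.15, adjusted p = 0.00131), and was lower in the C5 control than in the parental line (-1.52, SE 0.15, adjusted p = 0.000316), the same order of groups as Rasa1. Sos1, the exchange factor recruited to receptors by Grb2 and named here after its values were seen, rose by 0.61 (SE 0.08, adjusted p = 0.000264) and 0.56 (SE 0.08, adjusted p = 0.000656). Rasgrf2, a calcium-responsive exchange factor, averaged 2.26, 0.979 and 9.44 CPM, and was lower than in the parental line in the E4 knockout (-2.07, SE 0.34, adjusted p = 0.00182) and in the C5 control (-3.23, SE 0.37, adjusted p = 0.000575). Its difference between the clones (1.17, SE 0.39, adjusted p = 0.0348) was called without knockout replicate 1 or control replicate 1, and lost without each of the other 7 libraries (adjusted p from 0.0509 to 0.137), with the replicate number as a block (0.0511) and in a fit of only the 2 clones (0.0842). Of 9 other tested GAPs and Spred proteins, 2 were higher and 1 lower in each comparison of the E4 knockout, a share of 33.3% beside 42.9% and 31.4% of all genes. The genes named from this list were chosen after their values were seen. Dab2ip, a GAP, was the one called lower, by 0.73 (SE 0.11, adjusted p = 0.000858) and 0.60 (SE 0.11, adjusted p = 0.00363). Those called higher than in the C5 control were the GAP genes Rasal2 (0.70, SE 0.11, adjusted p = 0.000716) and Rasa2 (0.30, SE 0.09, adjusted p = 0.0177), the latter lost without knockout replicate 2 (0.0503) or 3 (0.0576). Those called higher than in the parental line were the GAP gene Rasa3 (0.38, SE 0.09, adjusted p = 0.0103) and Spred3 (1.02, SE 0.28, adjusted p = 0.0216), the latter lost without knockout replicate 1 or 3 or any parental library (0.0573 to 0.0778). Among the 7 receptor adaptors, 2 rose and 2 fell against the C5 control and 1 rose and 1 fell against the parental line. These were 57.1% and 28.6% of the list, beside 42.9% and 31.4% of all genes. The related docking proteins Gab1 and Gab2 moved apart. Gab1 fell to 1.58 ± 0.221 CPM from 9.05 ± 1.06 and 12.2 ± 0.651 (-2.52, SE 0.16, adjusted p = 8.16e-06, and -2.95, SE 0.16, adjusted p = 4.79e-06), and Gab2 rose by 1.25 (SE 0.20, adjusted p = 0.00108) and 1.0 (SE 0.20, adjusted p = 0.0051).

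Downstream of Ras, 4 of 18 tested effectors were called higher and 5 lower against the C5 control, and 4 higher and 6 lower against the parental line, 50% and 55.6% of the list beside 42.9% and 31.4% of all genes tested. The RAF kinase genes Araf and Braf, named after their values were seen, moved in opposite directions: Araf fell by 0.76 and 0.65 (SE 0.10 for both, adjusted p = 0.000354 and 0.00134), while Braf rose by 0.49 and 0.60 (SE 0.12 for both, adjusted p = 0.00758 and 0.00417). Of the tested effectors that activate Ral, Rgl1 and Rgl2, named for that role after their values were seen, were not called. Rgl3 fell by 1.83 (SE 0.25, adjusted p = 0.000403) and 1.06 (SE 0.25, adjusted p = 0.0111), and Ralgds fell by 1.38 (SE 0.38, adjusted p = 0.0166) and 1.32 (SE 0.39, adjusted p = 0.0277). Rgl3 lies on chromosome 9, whose median was -0.53 in both comparisons, and the part of that shift in its fall was not tested. In the C5 control Rgl3 was higher than in the parental line (0.78, SE 0.24, adjusted p = 0.0432), a call made in 7 of 17 alternatives. The calls of Ralgds were lost against the C5 control without knockout replicate 2 (adjusted p = 0.0515) or 3 (0.0637), and against the parental line without any 1 of the 6 libraries compared (0.0528 to 0.0961); limma voom made neither call (0.055 and 0.0546). Rasip1, an endothelial Ras-interacting protein, had 2 counts in the E4 knockout, 25 in the C5 control and 41 in the parental line, ratios of 11.6 (95% exact counting interval 2.88 to 101) and 21 (5.46 to 179) after scaling to depth, intervals for the error of counting alone, because PCR copies of a molecule are not told apart here. The control libraries ran from 0.0595 to 0.84 CPM, a spread those intervals do not cover, and the call against the C5 control (adjusted p = 0.0257) was lost without any 1 knockout library or control replicate 3 (0.0585 to 0.0811) and in limma voom (0.052).

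Of the 5 tested genes of the ERK cascade list, 3 fell and 0 rose against the C5 control, and 4 fell and 0 rose against the parental line, where 24.2% and 18.3% of all genes were called lower, with the same counts under DESeq2 size factors and total counts. The genes named here were chosen after their values were seen. Map2k1, which encodes MEK1, fell by 0.63 (SE 0.11, adjusted p = 0.00167) and 0.64 (SE 0.11, adjusted p = 0.00244). The scaffold gene Ksr1 fell by 0.44 (SE 0.09, adjusted p = 0.00336) and 0.32 (SE 0.09, adjusted p = 0.0218). Mapk3, which encodes ERK1, differed by -0.04 (SE 0.16, adjusted p = 0.854) and fell by 0.52 against the parental line (SE 0.16, adjusted p = 0.0322). Map2k2, which encodes MEK2, was at -0.21 (SE 0.08, adjusted p = 0.0512) and -0.12 (SE 0.08, adjusted p = 0.28), and the first was called without control replicate 3 (adjusted p = 0.0114), with a mean of at least 5 CPM (0.0285) and by DESeq2 (0.0365). Against the parental line the call of Mapk3 was lost without any 1 of the 6 libraries compared (adjusted p from 0.0679 to 0.125), and that of Ksr1 without any knockout library or parental replicate 2 or 3 (0.0602 to 0.0906) and with no filter on low counts (0.0909). Between the C5 control and the parental line none of the 5 passed in edgeR (adjusted p = 0.0571 for Mapk3, 0.973 for Map2k1, 0.42 for Map2k2 and 0.366 for Ksr1), but Mapk3 was called lower in the C5 control in 6 of 17 alternatives: total-count scaling (0.0414), no filter (0.0186), DESeq2 (0.0254), the replicate block (0.0328), and without control replicate 2 (0.0297) or 3 (0.0172). Map2k1 lies on chromosome 9, whose median was -0.53 in both comparisons of the E4 knockout.

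Of 15 tested genes that attach, remove or deliver the lipids of Ras, 3 were higher and 2 lower against the C5 control, and 2 higher and 3 lower against the parental line, 33.3% in each, beside 42.9% and 31.4% of all genes tested. Without control replicate 2 the counts against the C5 control were 3 higher and 4 lower, where 53.5% of all genes were called. Zdhhc9 and Golga7, the palmitoyltransferase pair of Hras and Nras and named here for that role, were not called: Zdhhc9 was at 29.2, 37.5 and 27.3 CPM (-0.36, SE 0.17, adjusted p = 0.108, against the C5 control; 0.10, SE 0.17, adjusted p = 0.706, against the parental line) and Golga7 at 106, 117 and 116 CPM (-0.14, SE 0.07, adjusted p = 0.162; -0.12, SE 0.07, adjusted p = 0.227). Without control replicate 2, Zdhhc9 was called lower in the E4 knockout than in the C5 control (adjusted p = 0.0103). Of 5 thioesterases that remove palmitate, 2 were called in these comparisons and Lypla1, Abhd17a and Abhd17b in neither; all were named after their values were seen. Lypla2 rose by 0.47 (SE 0.10, adjusted p = 0.00445) and 0.40 (SE 0.10, adjusted p = 0.0142), and Abhd17c fell by 0.51 (SE 0.10, adjusted p = 0.00296) and 0.48 (SE 0.10, adjusted p = 0.006). The call of Lypla2 against the parental line was lost without knockout replicate 1 (adjusted p = 0.0526) or parental replicate 3 (0.0599). Lypla1 was at 0.17 (SE 0.07, adjusted p = 0.0895) and -0.21 (SE 0.07, adjusted p = 0.05), and the second was called lower in 7 of 17 alternatives.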

How the data were processed

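RNA of 9 libraries (3 groups of 3, KAPA mRNA HyperPrep, per the labels) was measured as estimated counts per gene that the authors deposited; all values were whole numbers. RSEM 1.3.0, STAR 2.5.2, DESeq2 1.10.1 and build GRCm38 are named in the submitters' processing notes; the annotation release and strand setting are not given in the sources used here, so antisense overlaps are uncertain. RSEM splits reads shared by several genes by estimate.

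Symbols, positions and sequences came from GENCODE M21 (GRCm38), which named 54723 of 54838 identifiers. The quasi-likelihood test was run with edgeR 4.0.16 (R 4.3.3) after filterByExpr (minimum count 10, minimum total 15) and TMM scaling, in 1 fit of all 9 libraries with group as the only term. P-values were adjusted by Benjamini-Hochberg over 13153 genes, with calls under 0.05; p-values measure the spread between libraries of a clone. SEs were taken from the log2 fold change and its F statistic. CPM used TMM-scaled depths; libraries held 16525869 to 23192701 counts. The test was checked on simulated counts. The labels give no batch. The genes described and the pathway lists were chosen with earlier results of these data known. Beside the 7 genes and Zdhhc20, the naming rule took list genes called the same way against both other groups in a clone with a log2 difference of 1 or more in size (at most 4 a list and group), and the 2 nearest profiles; exceptions are marked. Alternatives were DESeq2 1.42.0 size factors, total counts, no filter, a mean of at least 5 CPM, DESeq2, limma 3.58.1 voom, a replicate block, fits limited to the compared groups, omission of single libraries, and longest-transcript lengths for shares and, added after seeing the data, for levels. Some list genes are counted but not reported here by name.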

Additional observations from a re-analysis of the deposited data

How the results depend on the processing

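Over all alternatives, 465 of 516 values for the 7 genes, the counts called and the shares kept their direction and side of the threshold or stayed within their spread, as did 1613 of 1721 for the named pathway genes. The replicate numbers were not treated as pairs in the main fit. Deviations of same-numbered libraries correlated at -0.223 to 0.344 and those of other libraries at -0.459 to 0.47, overlapping ranges that cannot exclude a pairing. With the replicate number as a block, the Nras difference between the clones was 0.22 (adjusted p = 0.0533) and lost its call. No filter left Nras at 0.23 between the clones, and called Rras2 at -0.45 between the clones and 0.60 between the C5 control and the parental line. Total counts (0.25) and DESeq2 (0.22) called Nf1 between the clones, and DESeq2 called Rras2 at 0.59 in the C5 control against the parental line. With only the compared groups fitted, Nras was 0.24 between the clones and not called, Nras (0.12) and Nf1 (0.18) were called against the parental line, so 4 of 7 genes were called there, where 53.5% of all genes were, and 10 pathway genes were called between the C5 control and the parental line, where 11.8% of all genes were. A mean of at least 5 CPM removed Mras (mean 4.45 CPM), which left 1 call in each comparison with the parental line, where 32.7% and 22.2% of 10017 genes were called. With longest-transcript lengths the mean shares in the E4 knockout, the C5 control and the parental line were 13.0%, 13.7% and 13.5% for Hras and 52.5%, 44.1% and 52.3% for Nras, and Rras2 held 20% and 19.6% in the E4 knockout and the parental line. Leaving out each library in turn, 34 to 51 pathway genes were called for the E4 knockout against the C5 control, in fits that called 32.1% to 53.5% of all genes, and 28 to 52 against the parental line, in fits that called 18.7% to 42.7%. The E4 knockout against the C5 control ran from -0.28 to 0.04 for Hras, 0.18 to 0.29 for Nras, -0.40 to 0.14 for Rras, -0.60 to -0.12 for Rras2 and 0.15 to 0.26 for Nf1, with 2 to 6 genes called (6 without control replicate 3, where 45.5% of all genes were called, and 2 without knockout replicate 1 or 3 or control replicate 1, where 32.1% to 35% were). Against the parental line Mras ran from -0.74 to -0.55, with 1 to 2 genes called, where 18.7% to 42.7% of all genes were. The C5 control against the parental line ran from 0.02 to 0.34 for Hras, 0.02 to 0.56 for Rras, 0.27 to 0.75 for Rras2 and -0.10 to 0.03 for Nf1, with 2 to 4 genes and 10 to 29 pathway genes called (10 without parental replicate 1, where 11% of all genes were called, and 29 without control replicate 3, where 30.8% were; 4 genes without control replicate 2 or 3, at 29.2% and 30.8%). The cause of these changes was not tested. With 3 libraries a group, 1 of them often decided a call near the threshold, and Mras rested on 29 to 154 counts a library.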

Other observations

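Of 15 tested genes of other Ras-like GTPases, 5 were higher and 1 lower in the E4 knockout than in the C5 control, and 5 were higher and 2 lower than in the parental line, 40% and 46.7% of the list beside 42.9% and 31.4% of all genes tested. Against the C5 control, 6 were higher and 4 lower without control replicate 2, where 53.5% of all genes were called. With total counts 7 were higher and 1 lower, where 43.8% were. Rrad and Rem2, which encode 2 GTPases of the RGK family known as inhibitors of voltage-gated calcium channels, rose in both. Rrad was at 6.63 ± 0.47 CPM in the E4 knockout, 1.08 ± 0.575 in the C5 control and 1.09 ± 0.179 in the parental line (SD, n = 3), and rose on the log2 scale by 2.64 (SE 0.32, adjusted p = 0.000214) against the C5 control and 2.59 (SE 0.32, adjusted p = 0.000385) against the parental line. Rem2 was at 9.98 ± 1.23, 2.61 ± 0.987 and 2.23 ± 0.423 CPM, and rose by 1.93 and 2.17 (SE 0.26 and adjusted p = 0.000367 for both). Rala, a Ral GTPase on chromosome 13 and chosen after its values were seen, followed the same order of groups as Rasa1: it rose by 0.67 (SE 0.07, adjusted p = 8.53e-05) and 0.35 (SE 0.07, adjusted p = 0.00407) in the E4 knockout and was at -0.32 in the C5 control against the parental line (SE 0.07, adjusted p = 0.0109; not called without parental replicate 1, at 0.0532, or with only these 2 groups fitted, at 0.0573).

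Of 12 tested genes that respond to ERK activity, 6 were higher and 2 lower in the E4 knockout than in the C5 control, and 4 were higher and 2 lower than in the parental line, 66.7% and 50% of the list beside 42.9% and 31.4% of all genes tested. Spry2, a feedback inhibitor of receptor signalling, was at 88.1 ± 2.23, 39.5 ± 7.67 and 43.9 ± 3.52 CPM and rose by 1.16 (SE 0.13, adjusted p = 0.000145) and 1.0 (SE 0.13, adjusted p = 0.000503). The transcription factor gene Etv4, chosen after its values were seen, rose by 0.83 (SE 0.15, adjusted p = 0.00201) and 0.75 (SE 0.15, adjusted p = 0.00494). Other genes of the list were lower. Spry1, a feedback inhibitor related to Spry2, fell by 0.72 (SE 0.16, adjusted p = 0.0064) and 0.57 (SE 0.16, adjusted p = 0.0261), the second call lost without any 1 of the 6 libraries compared (0.0537 to 0.0871). The cyclin D1 gene Ccnd1 fell by 0.40 against the C5 control (SE 0.10, adjusted p = 0.00871) and was at 0.05 against the parental line (SE 0.10, adjusted p = 0.71); both were chosen after their values were seen. Egr1, an immediate early gene, averaged 145, 4.27 and 244 CPM, higher in the E4 knockout than in the C5 control (5.09, SE 0.18, adjusted p = 3.38e-07) and lower than in the parental line (-0.75, SE 0.14, adjusted p = 0.00382), the order of groups seen for Mras. The lists were read by counts alone, and their differences from other genes were not tested.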
